A study of Mus musculus with 20 samples.

Results

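Cubn, Amn, Lrp2 and Dab2 encode the cubilin endocytic receptor of absorptive epithelia and its partners, and Slc5a12 encodes a lactate transporter of the same cells. These 5 genes were examined out of 25027 named genes on the array, and all array probes that the design names for them were taken, 12 in number. They were chosen from the comparison of BRAFV600E with Cre control, in which Slc5a12 and Cubn had the lowest log2 differences of all genes tested, so their values in that comparison are a description and carry no test. The comparison of MEKi with Vehicle used other mice and was tested.

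Cubilin is a large protein of the brush border that has no membrane-spanning part. Amnionless, the product of Amn, anchors it in the membrane, and the complex takes up vitamin B12 bound to intrinsic factor in the distal small intestine and albumin and other filtered proteins in the kidney proximal tubule. Megalin, encoded by Lrp2, is a giant receptor of the LDL receptor family that works beside cubilin, and Dab2 is an adaptor that links the tails of such receptors to clathrin. Slc5a12 carries lactate and other monocarboxylates into cells together with sodium, in kidney and small intestine.

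RNA from the intestines of 20 C57BL6/j mice was hybridised to 1-colour microarrays, 1 array per mouse. All mice of the first experiment carried 1 copy of a Cre recombinase that tamoxifen switches on and that the Villin promoter drives in gut epithelium (VillinCreER/0). The 6 Cre control mice carried no further allele, and the 6 BRAFV600E mice also carried 1 knock-in allele that expresses mutant BRAF once Cre removes a stop cassette (BrafV600E-LSL/+). Both groups were given 3 daily doses of 2 mg tamoxifen and were harvested 3 days after the last dose. The 4 MEKi and 4 Vehicle mice were given 2 injections of 1 mg tamoxifen and then 3 injections of the MEK inhibitor PD184352 or of its carrier. Their genotype is not in the labels, and the study describes them as mice with the mutant allele. Mice were 8 to 12 weeks old at induction. The mutation reaches the Villin-positive epithelium alone, whereas RNA came from tissue, so fewer cells of a type and less RNA per cell cannot be told apart. The first experiment asks what mutant BRAF changes within days, and the second asks which of these changes depend on MEK, the kinase downstream of BRAF.

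Levels below are log2 processed signal minus the array's own 75th percentile, so that 0 is the level of a spot at that percentile. Between 60.8% and 76.8% of spots per array were well above background and 0 were saturated. The Cre control arrays shared slide 1 with the first 2 BRAFV600E replicates, and the other 4 BRAFV600E replicates were on slide 2. Where the BRAFV600E arrays of slide 2 are used alone, slide and genotype therefore cannot be told apart. MEKi and Vehicle occupied separate rows of slide 3, so that row and treatment cannot be told apart there. On slide 2 the labelling spike-ins had a slope of 0. As a check of the treatments, 11 of 12 genes of a MAPK output list were called higher in BRAFV600E and 6 of 12 lower under MEKi, or 10 and 5 without replicate 2 of BRAFV600E and of Vehicle. Braf itself, whose probe does not tell the alleles apart, had a log2 difference of 0.42 (SE 0.20, limma adjusted p 0.172) in BRAFV600E.

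BRAFV600E replicate 2 and Vehicle replicate 2 stood apart in regional markers, before any result is drawn from them. Cybrd1, the duodenal ferric reductase, was at 6.48 and 6.29 on these arrays and at −0.31 or below on the other 18. Pdx1, a transcription factor of the duodenum, was at 3.10 and 3.72. Slc40a1, the iron exporter ferroportin, was at 5.01 and 5.50, and at 1.00 or below elsewhere. A few other proximal markers went the other way, and Lct (lactase) did so on both arrays. It was at −2.23 on BRAFV600E replicate 2 and from 5.49 to 7.12 on the other BRAFV600E arrays. In Vehicle it was at 3.70 on replicate 2 and from 7.10 to 7.47 on the other arrays. Fabp1 and Apoa4, of fatty acid and lipid handling, were lowest in BRAFV600E on replicate 2, at 7.71 and 7.59. On Vehicle replicate 2 they were at 8.33 and 8.19, which was not the lowest of Vehicle. The summed level (log2 of the summed signal) of the 14 proximal markers ran from 9.84 to 10.59 in BRAFV600E and from 9.88 to 10.72 in Cre control. In Vehicle it ran from 9.81 to 10.44 against 9.75 to 10.13 in MEKi, and all 14 were above background on every array. The mean log2 level of the same 14 genes was 5.51 on Vehicle replicate 2, from 3.20 to 3.40 on the other Vehicle arrays and from 3.12 to 3.61 in MEKi. On BRAFV600E replicates 1, 2 and 5 it was 4.16, 4.80 and 4.56, above the Cre control range of 3.73 to 4.06. On BRAFV600E replicates 3, 4 and 6 it was 3.66, 3.69 and 3.89. Vehicle replicate 2 also held exocrine pancreas transcripts, with a summed level of 10.97 against 2.48 to 2.72 on the other Vehicle arrays. The members' differences are given with and without these arrays, and so are the list calls that changed without them.

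The summed level of 9 distal small intestine markers did not overlap between the groups of either comparison. It ran from 7.09 to 7.47 in BRAFV600E and from 7.64 to 8.84 in Cre control, and from 8.09 to 8.41 in MEKi and from 7.61 to 8.08 in Vehicle. The directions of the sum were those of Cubn, but single markers went both ways in each comparison. Muc13, a mucin, was the highest of these markers on every array, and on BRAFV600E replicate 6 the sum lacks Slc51a, whose spot was an outlier. The mean log2 level of the same 9 genes did overlap, from −0.75 to 0.92 in BRAFV600E and from 0.15 to 1.48 in Cre control, and from 0.82 to 1.83 in MEKi and from −0.25 to 2.13 in Vehicle. In BRAFV600E limma called 2 of the 9 lower and 1 higher, with or without BRAFV600E replicate 2. On all arrays 12.4% of all genes were called in either direction. The lower were Gcg (−1.84, limma adjusted p 0.0283) and Slc51a (−1.27, limma adjusted p 0.0189), and the higher was Pyy (1.99, limma adjusted p 0.0164). Fabp6 was also higher in BRAFV600E, by 0.83, without a call, and the remaining markers had lower means. Under MEKi limma called 0 of 9, with 3 at an unadjusted p under 0.05 (16.4% of all genes), and without Vehicle replicate 2 it called 1 higher and 1 lower. On all arrays the log2 difference under MEKi was −2.97 for Slc10a2, −2.16 for Fabp6, −0.47 for Pyy and −0.24 for Fgf15. It was 2.78 for Nts, 1.94 for Gcg, 0.47 for Muc13, 0.46 for Slc51b and 0.44 for Slc51a. The part of region in the members' values was not tested.

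The tissue was checked against markers of gut and kidney. All 17 enterocyte markers were above background on every array. Of the 12 kidney proximal tubule markers, between 8 and 12 were above background per array, but Slc22a12, the urate transporter of that segment, was above background on 2 of 20 arrays and Slc12a1, of the loop of Henle, on 4 of 20. The summed kidney proximal tubule level ran from 5.58 to 6.46 in Cre control, 6.31 to 6.62 in BRAFV600E, 6.69 to 6.75 in Vehicle and 6.25 to 6.65 in MEKi, and Hnf4a, which gut also expresses, was the highest marker in it on every array. The mean log2 level of the 12 markers set MEKi replicate 4 apart, at −0.83 against −2.77 to −1.76 on the other 19 arrays. On that array all 12 were above background, and Kap and Miox, both of the proximal tubule, were at 4.61 and 1.33 against at most 1.78 and −1.35 elsewhere. Umod, of the loop of Henle, was at −1.65 there and at −4.59 or below elsewhere. Not all kidney markers were raised on that array, since Slc34a1 (−2.78), Slc22a8 (−2.19), Slc5a2 (−3.39) and Aqp2 (−2.42) lay within the range of the other arrays.

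Cubn, the receptor itself, was measured by a single probe at chr2:13197978-13198037 (minus strand, mm9), and so was Slc5a12, at chr2:110487868-110487927 (plus strand, mm9). The first 30 of their 60 bases are shown because both findings rest on 1 probe each. Amn also had 1 probe, which is split over 2 stretches within chr12:112514095-112514243 (plus strand, mm9). Whether these probes lie in coding sequence was not analysed here.
Cubn probe: ggtgatacaaatagctgtatggtttccact
Slc5a12 probe: ggagcagaactcatccaaactgaacaaata
Amn probe: tttccgaaatccgattttcgacgcgattgt

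Cubn was the steadiest of the 5 genes in Cre control, with levels from 4.10 to 4.48 and a median of 4.16 over 6 arrays. In BRAFV600E its level was −1.59, −4.95, 0.13, 0.63, −0.60 and −0.05 on replicates 1 to 6, with a median of −0.32. Every BRAFV600E array lay below every Cre control array, with a gap of over 3 log2 units between the groups, and replicate 2 was not well above background. The group means were −1.07 ± 2.05 (SD, n = 6) and 4.23 ± 0.16 (SD, n = 6), a log2 difference of −5.31 (SE 0.75), or 39.6-fold lower. Without BRAFV600E replicate 2 the log2 difference was −4.53 (SE 0.32), and with the 4 BRAFV600E arrays of slide 2 alone it was −4.21 (SE 0.21). Within slide 1, which held 2 BRAFV600E arrays, it was −7.50 (SE 0.69), and with replicate 1 as the lone BRAFV600E array there it was −5.82.

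Slc5a12 ranged in Cre control from 2.33 to 3.69, with a median level of 3.14. In BRAFV600E its level was −4.81, −7.27, 0.28, 0.74, −4.89 and −1.02 on replicates 1 to 6. The arrays fell into a lower trio (replicates 1, 2 and 5) and a higher trio (replicates 3, 4 and 6), both below every Cre control array, and replicates 2 and 5 were not well above background. The group means were −2.83 ± 3.27 (SD, n = 6) and 3.09 ± 0.53 (SD, n = 6), a log2 difference of −5.92 (SE 1.21). It was −5.03 (SE 1.00) without BRAFV600E replicate 2, −4.31 (SE 0.92) with the slide 2 arrays alone and −9.13 (SE 0.61) within slide 1. These values include the 2 BRAFV600E arrays at background with the signal they had, so that 4 of 6 BRAFV600E arrays measured the gene.

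**Figure D1:**
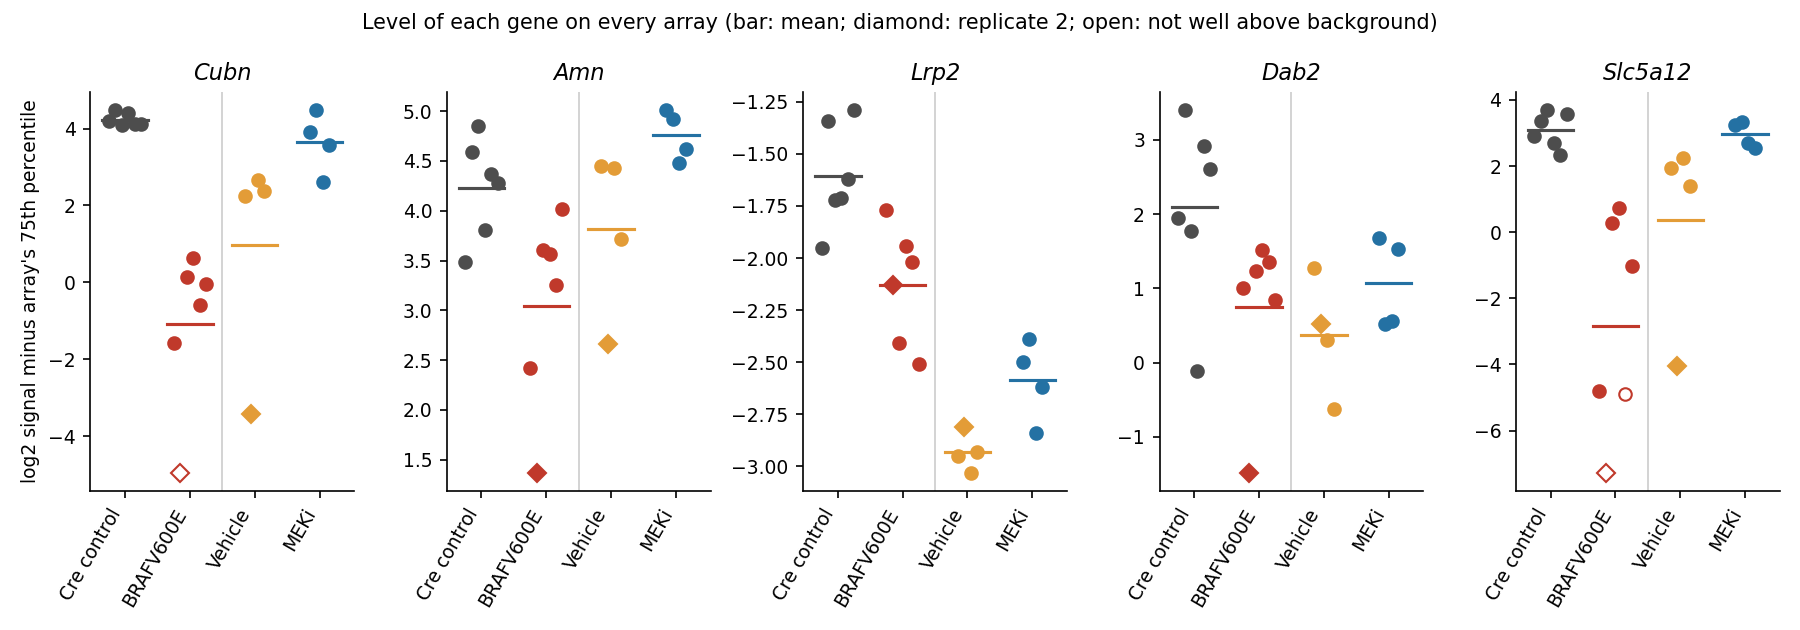
Levels of the 5 genes on every array (y axis: log2 signal minus the array's 75th percentile, a separate scale for each gene; x axis: group). Points are arrays, bars are group means, diamonds are replicate 2 of BRAFV600E and of Vehicle, and open symbols are arrays not well above background. Cubn lies between 4.10 and 4.48 in Cre control and at 0.63 or below in BRAFV600E.

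Amn, the membrane anchor of cubilin, had levels from 3.48 to 4.85 in Cre control, with a median of 4.33. In BRAFV600E it was at 2.42, 1.37, 3.61, 3.57, 3.25 and 4.02 on replicates 1 to 6, with a median of 3.41. Replicates 1, 2 and 5, which were also the lowest for Cubn and Slc5a12, lay below all Cre control arrays, and the other 3 overlapped with Cre control. The means were 3.04 ± 0.98 and 4.23 ± 0.50 (SD, n = 6 each), a log2 difference of −1.19 (SE 0.41). Without BRAFV600E replicate 2 it was −0.86 (SE 0.31), and with the slide 2 arrays alone −0.62 (SE 0.27). Within slide 1 it was −2.34 (SE 0.41).

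Dab2 was the only member besides Lrp2 with several probes. Its brightest probe and another one are each split over more than 1 stretch, as that of Amn is, within chr15:6366964-6368258 and chr15:6374197-6374640 (plus strand, mm9). They are shown because their differences went alike while another probe further 3′ did not follow them.
Dab2 probe A_55_P2639170: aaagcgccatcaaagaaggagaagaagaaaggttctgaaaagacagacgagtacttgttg
Dab2 probe A_52_P17534: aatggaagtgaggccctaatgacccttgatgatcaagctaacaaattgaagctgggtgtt

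With the brightest probe, Dab2 ranged from −0.11 to 3.40 in Cre control, with a median level of 2.28. In BRAFV600E it was at 1.01, −1.48, 1.24, 1.52, 1.36 and 0.85 on replicates 1 to 6. The groups overlapped through Cre control replicate 4 alone, which had the level of −0.11, and BRAFV600E replicate 2 was far below its own group. The log2 difference was −1.34 (SE 0.61), and −0.90 (SE 0.51) without BRAFV600E replicate 2. The other of the 2 probes shown gave a log2 difference of −1.36 (SE 0.24) with no overlap between the groups, from −4.81 to −3.39 in Cre control and from −6.04 to −4.99 in BRAFV600E, but only 1 of 6 BRAFV600E arrays measured it well above background. Another probe, at chr15:6389424-6389483, was above background on all 20 arrays and gave −0.19 (SE 0.27). The last of the 4 probes was above background on 0 arrays. Macrophages also express Dab2, and 2 of 10 macrophage markers were called lower in BRAFV600E, as were 6.26% of all genes. Csf1r was among them (−0.69, limma adjusted p 0.0133) and was the 1 called of 10 without BRAFV600E replicate 2. The summed macrophage level ran from 4.30 to 4.88 in BRAFV600E and from 4.81 to 5.26 in Cre control, and its part in the Dab2 values was not tested.

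The Lrp2 values rest on probes that the array design ties to different transcripts. The probe that stood for it, at chr2:69364423-69364482 (minus strand, mm9), is tied by the array design to an Ensembl transcript and not to the RefSeq transcript of megalin. Its level ran from −1.95 to −1.29 in Cre control, with a median of −1.67, and from −2.51 to −1.77 in BRAFV600E, with a median of −2.07. The ranges overlapped and the log2 difference was −0.52 (SE 0.16), unchanged at −0.52 without BRAFV600E replicate 2. The sign depended on scaling, with 0.29 when arrays were not scaled to one another, a setting that moved the median of all genes to 0.79. Of the 3 probes on the RefSeq transcript, 1 was above background on 0 arrays, as was a further Ensembl probe. The remaining 2, near the 3′ end at chr2:69262566-69262625 and chr2:69262394-69262451, were above background on 12 and 11 of 20 arrays and gave log2 differences of −0.16 (SE 0.79) and −0.91 (SE 0.50). On the RefSeq transcript of megalin, signal was thus at or near background.

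**Figure D2:**
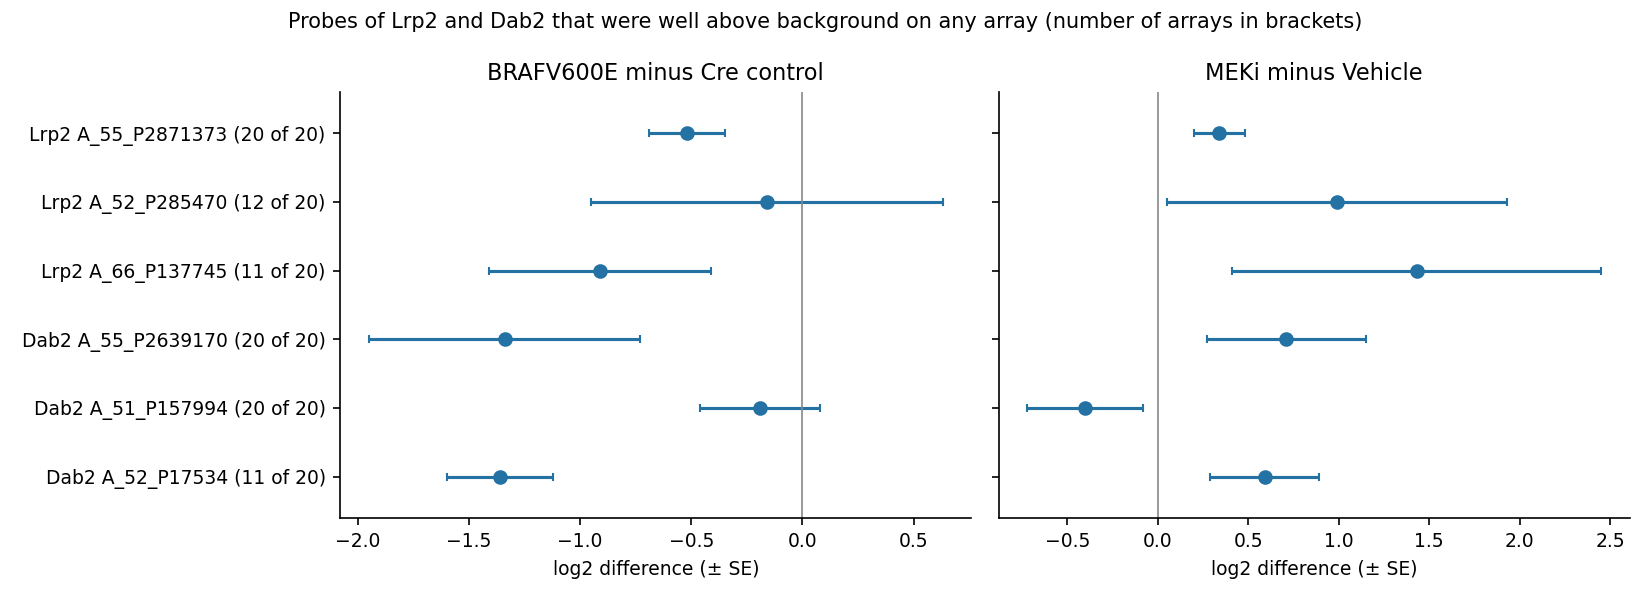
Log2 difference (x axis, ± SE from limma over all probes) of each Lrp2 and Dab2 probe that was above background on any array (y axis, with the number of such arrays of 20), for BRAFV600E minus Cre control (left) and MEKi minus Vehicle (right). In the left panel the Dab2 probes lie at −1.34, −0.19 and −1.36. In the right panel 1 of the 3 Dab2 probes lies below 0.

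All 5 genes had a lower mean in BRAFV600E, apart from Lrp2 when arrays were not scaled, with a median log2 difference of −1.34 over the members and of −0.02 over all 19034 genes tested. Of the 5, limma called 2 lower at an adjusted p under 0.05, and 6.26% of all genes were called lower. For the same 2 genes, Cubn and Slc5a12, every BRAFV600E array lay below every Cre control array, as it did for 3.17% of all genes. Since the members were chosen from this comparison, nothing is read from these counts.

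In the second experiment the mean of each of the 5 genes was higher under MEKi than in Vehicle, with a median log2 difference of 0.94 over the members and 0.04 over all 19224 genes tested. None of the 5 was called by limma, against 1.09% of all genes called higher, and 2 of 5 (Amn and Lrp2) had an unadjusted p under 0.05, as did 16.4% of all genes in either direction. For 2 of 5 (Amn and Slc5a12) every MEKi array lay above every Vehicle array, as it did for 6.44% of all genes.

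Cubn was at 3.90, 4.48, 2.61 and 3.57 on MEKi replicates 1 to 4 and at 2.25, −3.43, 2.65 and 2.38 on Vehicle replicates 1 to 4. MEKi replicate 3 lay just under Vehicle replicate 3, and the other MEKi arrays lay above all Vehicle arrays. The log2 difference was 2.68 (SE 1.30, limma adjusted p 0.360), and most of its spread came from Vehicle replicate 2. Without that array it was 1.22 (SE 0.40, limma adjusted p 0.191).

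Slc5a12 was at 3.23, 3.34, 2.71 and 2.54 on the MEKi arrays and at 1.93, −4.05, 2.24 and 1.39 on the Vehicle arrays. The groups did not overlap, with or without Vehicle replicate 2. The log2 difference was 2.58 (SE 1.29, limma adjusted p 0.376) on all arrays and 1.1 (SE 0.28, limma adjusted p 0.104) without Vehicle replicate 2.

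Amn was at 5.01, 4.92, 4.48 and 4.62 under MEKi and at 4.45, 2.66, 4.43 and 3.72 in Vehicle, which placed the lowest MEKi array barely above the highest Vehicle array. The log2 difference was 0.94 (SE 0.39, limma adjusted p 0.277), and 0.56 (SE 0.23, limma adjusted p 0.284) without Vehicle replicate 2. Dab2 was at 1.68, 0.52, 0.56 and 1.53 under MEKi and at 1.28, 0.52, 0.30 and −0.63 in Vehicle, with overlapping groups. Its log2 difference was 0.71 (SE 0.44, limma adjusted p 0.493), and 0.76 (SE 0.50, limma adjusted p 0.517) without Vehicle replicate 2. Its probe nearest the 3′ end gave −0.40 (SE 0.32), and so the direction for Dab2 depended on the probe. Lrp2 was at −2.50, −2.39, −2.84 and −2.62 under MEKi and at −2.95, −2.81, −3.03 and −2.93 in Vehicle. The groups overlapped only in MEKi replicate 3 and Vehicle replicate 2. Its log2 difference was 0.34 (SE 0.13, limma adjusted p 0.248), and 0.38 (SE 0.15, limma adjusted p 0.247) without Vehicle replicate 2. The 2 3′ probes of the RefSeq transcript gave 0.99 (SE 0.94) and 1.43 (SE 1.02). Their highest MEKi levels, −3.41 and −2.39, were on MEKi replicate 4, the array with the highest Kap, Miox and Umod. Without MEKi replicate 4 the log2 differences were 2.70 for Cubn, 2.71 for Slc5a12, 0.99 for Amn, 0.55 for Dab2 and 0.35 for Lrp2, with limma adjusted p from 0.401 to 0.721.

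Y-linked transcripts moved with this comparison. All 4 were above background on every MEKi array and on Vehicle replicates 1 and 3, and 1 of 4 on Vehicle replicates 2 and 4. Sex is not in the labels. By this signal the MEKi mice were all male and Vehicle replicates 2 and 4 female, so sex and treatment cannot be fully told apart. With Y-linked signal added to the fit the log2 differences were 1.24 for Cubn, 0.91 for Slc5a12, 0.32 for Amn, 0.28 for Dab2 and 0.40 for Lrp2, with limma adjusted p from 0.399 to 0.903. Within Vehicle, replicate 4, which had less Y-linked signal, lay between replicates 1 and 3 for Cubn and above both for Lrp2, but below both for Slc5a12 (1.39 against 1.93 and 2.24), Amn (3.72 against 4.45 and 4.43) and Dab2 (−0.63 against 1.28 and 0.30). Replicate 2, which also had less, was the lowest Vehicle array for Cubn, Slc5a12 and Amn. In the first experiment all 4 were above background on Cre control replicates 1, 2 and 3 and BRAFV600E replicates 1, 2, 3 and 6. On the other arrays of that experiment 1 of 4 was.

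**Figure D3:**
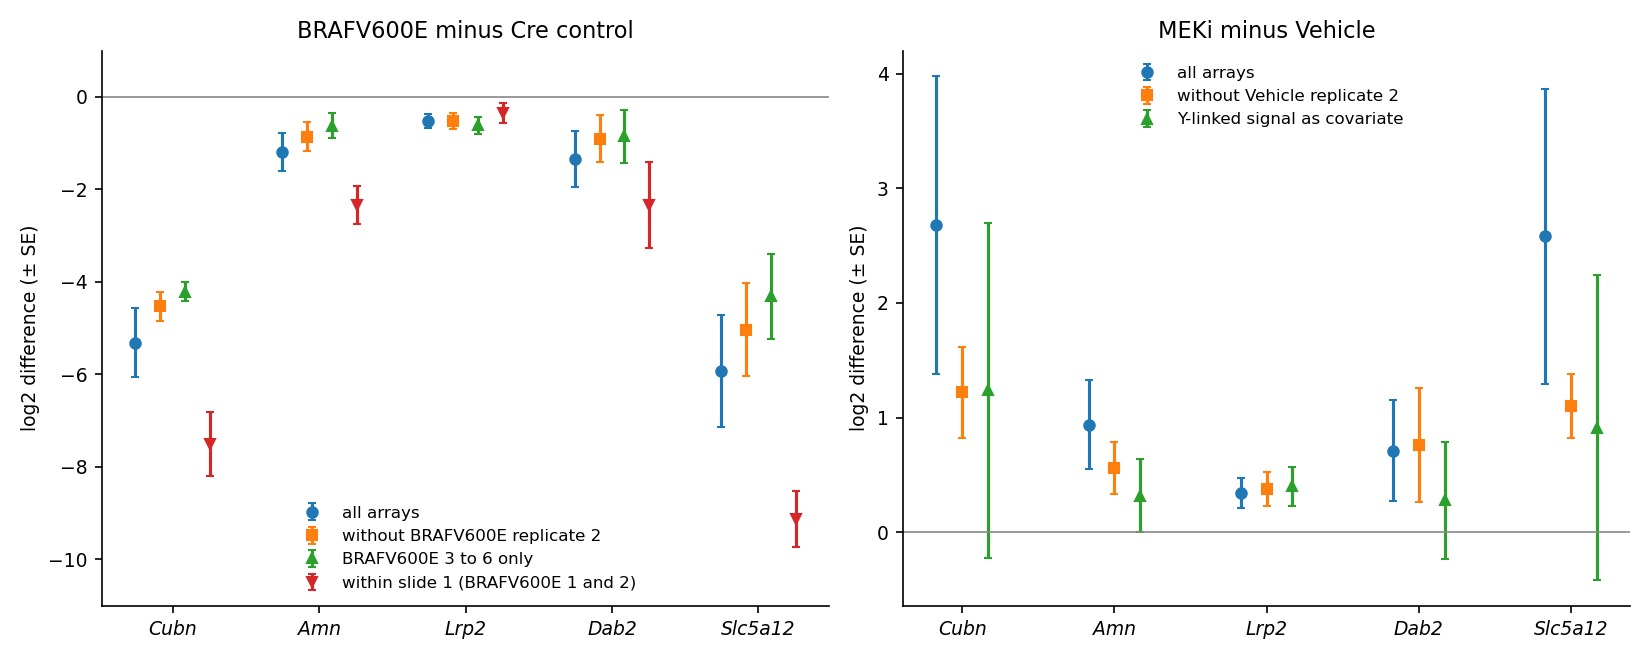
Log2 differences (y axis, ± SE from limma) of the 5 genes (x axis) for BRAFV600E minus Cre control (left) and MEKi minus Vehicle (right), on all arrays and under the named alternatives. Cubn and Slc5a12 lie at −4.21 or below in every setting of the left panel. In the right panel they move from 2.68 and 2.58 to 1.22 and 1.1 without Vehicle replicate 2.

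The levels of Cubn and Slc5a12 were set beside Pdx1 within the BRAFV600E group. Pdx1 was at 0.78, 3.10 and 1.06 on replicates 1, 2 and 5, and at −2.24, −1.26 and −2.02 on replicates 3, 4 and 6. Those with the higher Pdx1 were the same 3 arrays that had the lower Slc5a12, Cubn and Amn. In Cre control Pdx1 ran from −3.61 to −1.18, so that BRAFV600E replicates 3, 4 and 6 lay within the Cre control range of Pdx1 while their Cubn levels, from −0.05 to 0.63, lay below the Cre control minimum of 4.10. Some other proximal markers left the Cre control range on these 3 arrays, in both directions. Ada was at 6.97, 6.87 and 7.40 against a Cre control maximum of 6.68, and Tm4sf20 at 5.49, 5.37 and 5.41 against 5.28. Gip was at 1.06, 1.1 and 1.53 against a Cre control minimum of 2.27, and Lct at 6.86, 6.73 and 7.12 against 7.41. Slc40a1 was at −1.72, −1.41 and −1.35 against a minimum of −0.78. The Slc5a12 levels of these arrays, from −1.02 to 0.74, also lay below the Cre control minimum of 2.33. Distal markers went in different directions between MEKi and Vehicle. Fabp6, the ileal bile acid binding protein, was at 3.76, 2.91 and 1.35 on Vehicle replicates 1, 3 and 4 and at 0.45 or below on the MEKi arrays. Nts (neurotensin) was from 1.85 to 3.31 on the MEKi arrays and from 1.19 to 1.96 on the same Vehicle arrays, and every MEKi array was above every Vehicle array for Gcg, which encodes proglucagon. The part of these markers in the Vehicle values of Cubn was not tested.

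**Figure D4:**
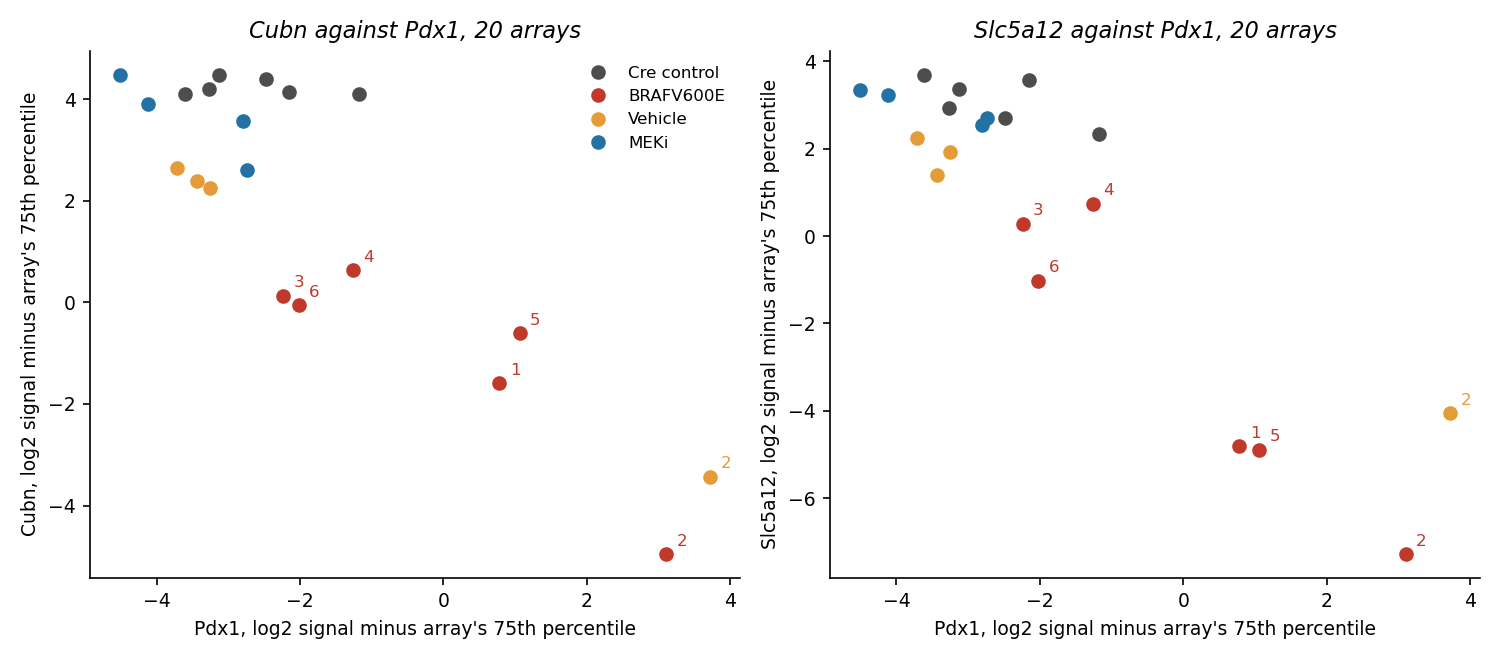
Level of Cubn (left) and Slc5a12 (right) on the y axis against that of Pdx1 on the x axis (log2 signal minus the array's 75th percentile), 1 point per array and 1 colour per group. Numbers mark BRAFV600E replicates and Vehicle replicate 2. BRAFV600E replicates 3, 4 and 6 share the Pdx1 range of Cre control and lie below the Cre control levels of both genes. Of other proximal markers, not shown, Ada and Tm4sf20 lie above the Cre control range on these arrays and Gip, Lct and Slc40a1 below it. The part of region was not tested.

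The genes most like Cubn and Slc5a12 were sought over the 20 arrays after each group's mean had been subtracted. For Cubn these were Bst1 (Pearson r 0.975), Ano6 (0.968), Cndp2 (0.967), Aplp1 (0.966) and Slc43a2 (0.965), out of 18352 genes. For Slc5a12 they were Pdk3 (0.949), Lap3 (0.949), Naaladl1 (0.945), Mirt2 (0.941) and Sgpl1 (0.941). Cndp2, Lap3 and Naaladl1 are peptidases. These values rest in part on BRAFV600E replicate 2 and Vehicle replicate 2, without which r was between 0.734 and 0.834 for the Cubn set and between 0.875 and 0.901 for the Slc5a12 set. The genes most opposite to Cubn were Cybrd1 (−0.974), Slc40a1 (−0.973), Rgp1 (−0.969), Porcn (−0.959) and Ncoa4 (−0.958). For Slc5a12 they were Slc16a9 (−0.935), Tspan12 (−0.921), Slc40a1 (−0.920), Akp3 (−0.916) and Pdx1 (−0.904). Without the same 2 arrays r was between −0.786 and −0.519 for the genes opposite to Cubn, and between −0.884 and −0.799 for those opposite to Slc5a12. Among the members, Cubn and Slc5a12 had r 0.880 with each other on 20 arrays and 0.716 on 18, Cubn and Amn 0.83 and 0.55, Cubn and Dab2 0.343 and 0.047, and Cubn and Lrp2 −0.121 and −0.027. All genes of an array share its depth and tissue, so these are descriptions with no p.

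The surrounding pathway was read from lists, beside a background of 12.4% of all genes called in either direction in BRAFV600E and 1.98% under MEKi. At an unadjusted limma p under 0.05 the share under MEKi was 16.4% of all genes. Leaving out arrays changed the background too. In BRAFV600E 1652 of all genes were called without replicate 2, against 2368 with it. Under MEKi 344 were called without Vehicle replicate 2 and 147 without MEKi replicate 4, against 380 on all arrays. Of 33 clathrin adaptor and endocytic genes, 4 were called higher in BRAFV600E and 0 lower. Among those higher was Gipc1, an adaptor of megalin, with a log2 difference of 1.00 (SE 0.15, limma adjusted p 0.00174). Without BRAFV600E replicate 2 the list held 2 calls. Under MEKi the list also held 2 calls, 1 in each direction, and the higher was Dab1, a relative of Dab2, which rose by 1.71 (SE 0.26, limma adjusted p 0.0209). Both MEKi calls stood without Vehicle replicate 2, and 0 genes of the list were called without MEKi replicate 4. The median log2 difference of the list was −0.02 in BRAFV600E and 0.01 under MEKi.

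Of the 13 other LDL receptor family genes tested in BRAFV600E, 1 was called higher and 2 lower, with a median log2 difference of −0.21. Lrp12 fell by 1.71 (limma adjusted p 0.0390) and Lrp4 by 0.70 (limma adjusted p 0.0198). Without BRAFV600E replicate 2 the call of Lrp12 was lost (−1.32, limma adjusted p 0.0517) and 1 was called in each direction. Under MEKi 0 of 13 were called by limma, 3 had an unadjusted p under 0.05 (16.4% of all genes did), and the median was 0.08.

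Of 13 genes of vitamin B12 handling, Mmab, a mitochondrial enzyme of B12 activation, was the 1 called in BRAFV600E, with a log2 difference of 0.81 (SE 0.18, limma adjusted p 0.0144), and 0.88 (limma adjusted p 0.0166) without BRAFV600E replicate 2. The median was 0.06, and under MEKi limma called 0 of 13, with 5 at an unadjusted p under 0.05 and a median of −0.05. Of 25 lysosome and apical endosome genes, 3 were called higher in BRAFV600E, among them Ctsc by 0.79 and Npc2 by 0.49, or 1, Npc2, without BRAFV600E replicate 2. Under MEKi limma called 0 of 25, with 2 at an unadjusted p under 0.05. The median differences were 0.14 and −0.08.

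Among 12 ligands of cubilin and megalin that were tested, Ttr (transthyretin) rose by 1.93 (SE 0.49, limma adjusted p 0.0249) in BRAFV600E. Alb (albumin) fell there by 1.16 (SE 0.25, limma adjusted p 0.0131). Its group means were low, at −5.4 in BRAFV600E and −4.24 in Cre control, and folds between dim signals are uncertain. The list held 4 calls without BRAFV600E replicate 2, Ttr and Alb among them, and a median of −0.49 with it. Under MEKi it held 0 calls by limma, with 2 at an unadjusted p under 0.05.

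For the relatives of Slc5a12, 22 monocarboxylate and Slc5 transporter genes were tested, of which 4 were called higher and 2 lower in BRAFV600E. The 2 lower were Slc5a11, a sodium-inositol transporter, at −2.51 (SE 0.75, limma adjusted p 0.0473), and Slc5a4b, at −1.67 (SE 0.48, limma adjusted p 0.0417). The largest rise was that of Slc16a12, by 1.54 (SE 0.34, limma adjusted p 0.0147). Without BRAFV600E replicate 2 the call of Slc5a4b was lost (−1.29, limma adjusted p 0.0590), Slc5a11 was at −1.72 (limma adjusted p 0.00578), and the 4 higher calls stood. The list median was −0.14 in BRAFV600E, and 0.04 without that array. Under MEKi limma called 0 of 22, with 1 at an unadjusted p under 0.05 and a median of −0.05.

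Enterocyte markers were called in both directions. Of 17 markers, Alpi, the intestinal alkaline phosphatase, was called higher in BRAFV600E by 1.84 (SE 0.29, limma adjusted p 0.00225), Mgam, a maltase, lower by a log2 difference of −1.14 (SE 0.27, limma adjusted p 0.0192), and the median was −0.41. Both calls stood without BRAFV600E replicate 2, at 1.60 and −1.08, with a median of −0.16. Under MEKi 1 of 17 was called, Slc2a5, the fructose transporter, with 0.61 (SE 0.11, limma adjusted p 0.0386), and 0 were called without Vehicle replicate 2 or without MEKi replicate 4. Of 23 transcription factors of the intestine, 3 were called higher in BRAFV600E and 0 lower, namely Pparg (1.40, limma adjusted p 0.0133), Hnf4a (0.60, limma adjusted p 0.0485) and Gata4 (0.49, limma adjusted p 0.0334), and 1, Pparg, was called without BRAFV600E replicate 2. Under MEKi 1 of 23 was called, in the higher direction, and without Vehicle replicate 2 it was not, while 1 was called lower.

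The promoters of the members were read from RefSeq sequences (GRCm38.p6), which held a start site for 4 of the 5 genes and none for Slc5a12. The 250 bases upstream of the start of Cubn and of Amn are shown because the 2 products form 1 complex while their log2 differences in BRAFV600E were −5.31 and −1.19. Motifs were searched on both strands among 32851 such windows. The HNF1 letters, GTTAAT, were in 6.43% of them and the HNF4 letters, CAAAGT, in 12.6%. The CDX letters, TTTATG, were in 10.8% and the letters of the GATA factors, which read AGATAA, in 9.99%. The AP-1 letters, TGANTCA, were in 6.75% and the ETS letters, CCGGAA, in 12.0%. Capitals mark matches. No motif overlapped another in these windows. Cubn lies at chr2:13491877-13492126 (minus strand) and Amn at chr12:111270846-111271095 (plus strand).
Cubn upstream: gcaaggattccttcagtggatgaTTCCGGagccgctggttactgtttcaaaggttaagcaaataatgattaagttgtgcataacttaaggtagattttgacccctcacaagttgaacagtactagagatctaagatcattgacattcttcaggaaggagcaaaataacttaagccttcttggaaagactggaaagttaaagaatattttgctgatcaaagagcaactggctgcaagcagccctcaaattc
Amn upstream: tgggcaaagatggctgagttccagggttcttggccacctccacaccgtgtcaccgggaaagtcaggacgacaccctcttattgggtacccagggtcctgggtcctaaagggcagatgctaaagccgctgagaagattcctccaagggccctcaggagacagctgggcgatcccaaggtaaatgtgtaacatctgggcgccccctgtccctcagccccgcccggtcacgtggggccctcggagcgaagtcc

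The Cubn window held 1 of the 6 motifs, an ETS core on the opposite strand from 227 to 222 bases upstream, and the Amn window held 0. The G and C content was 39.6% for Cubn and 61.2% for Amn, around a median of 52.4% over all windows. The Lrp2 window held the HNF4, CDX and ETS letters, and of the 2 Dab2 windows 1 held the HNF4 letters and the other the HNF1 and ETS letters. These are matches of letters and not sites of binding.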

How the data were processed

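RNA from intestinal tissue of 20 mice was hybridised to Agilent SurePrint G3 Mouse 8x60K arrays, 1 array per mouse. Per the file headers, the authors extracted each scan with Agilent Feature Extraction (version 10.5.1.1), which subtracted background and wrote a processed intensity per spot on a linear scale, not normalized between arrays, with marks for background, saturation and outliers. The deposited mean spot intensity, local background and series matrix of intensity were used as alternatives. The deposited marks of 0 or 1, of another kind than intensity, served as filters. Dim signals near background are imprecise, so folds against them are uncertain, and the number of arrays limits the precision.

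Of 62976 spots, the 59305 that were not controls made up 56605 probes. Outlier-marked spots were left out, log2 processed signal was scaled by subtracting each array's 75th percentile, and copies of a probe were averaged. Probes were named through RefSeq (GRCm38.p6, names only), and probe coordinates are those of the files (mm9). The probe with the highest mean over 20 arrays stood for a gene. A gene was tested where a share of at least 0.5 of the comparison's arrays marked that probe as well above background. The arrays of each comparison were fitted separately by lmFit and eBayes of limma (version 3.58.1 in R 4.3.3), two-sided, with Benjamini-Hochberg adjustment over all genes and no covariates. A call is an adjusted p under 0.05. Scripts were tested on simulated data. Groups came from the genotype and treatment labels. A treatment text shared by all 20 samples describes a statin and matched none of the groups, so it was not used. Replicate numbers name arrays in accession order and pair none.

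The members and the 21 gene lists were chosen with earlier results of these data known. Named list genes are at most the 3 called genes with the largest change, plus defining markers of tissue or region, and for Cubn and Slc5a12 the 5 most alike genes. Alternatives were other normalizations, background correction, probe rules, covariates, array weights, slide and leaving out each array. Values of some genes counted in the lists are not reported here.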

Additional observations from a re-analysis of the deposited data

Results flagged for a closer look

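In a group of 4 or 6 arrays, an array was singled out where its gap to the nearest other array, divided by the range of the group, passed Dixon's limit, which chance passes in about 1 of 20 groups. Of 20 groups examined (5 genes in 4 groups), 3 passed. On Vehicle replicate 2 Cubn was at −3.43, with the next array at 2.25 (ratio 0.935), and Slc5a12 was at −4.05, with the next array at 1.39 (ratio 0.865). On BRAFV600E replicate 2 Dab2 was at −1.48, with the next array at 0.85 (ratio 0.777). These are the 2 arrays with high Cybrd1, Pdx1 and Slc40a1.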

How the results depend on the processing

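The members' differences in BRAFV600E stayed negative under all alternatives run except for Lrp2. With slide as a block or within slide 1 the log2 differences were −7.50 for Cubn, −9.13 for Slc5a12 and −2.34 for Amn. Without scaling between arrays they were −0.38 for Amn and 0.29 for Lrp2, a setting in which 98.1% of 9333 called genes were higher, against 49.7% of 2368 with scaling, and in which the median of all genes was 0.79. With normexp background correction 4639 genes were called, 34.3% of them higher, and the median of all genes was −0.13. Within slide 1 with BRAFV600E replicate 1 as the lone array, assumed to vary like Cre control, Lrp2 was at −0.16, and with its probe nearest the 3′ end at −0.91. The last 2 settings, and the arrays of slide 2 alone, were chosen after seeing the data. Leaving out 1 array at a time gave −5.65 to −4.53 for Cubn, −6.63 to −5.03 for Slc5a12, −1.39 to −0.86 for Amn, −1.78 to −0.90 for Dab2 and −0.59 to −0.45 for Lrp2.

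Under MEKi none of the members was called by limma in any alternative, with adjusted p from 0.191 to 0.830 for Cubn, 0.104 to 0.875 for Slc5a12, 0.234 to 0.790 for Amn, 0.277 to 0.903 for Dab2 and 0.0998 to 0.925 for Lrp2. Dab2 turned to −0.40 with its probe nearest the 3′ end. The mean over probes moved Lrp2 to 0.92 and Dab2 to 0.30. Leaving out 1 array at a time gave 1.22 to 3.24 for Cubn, 1.1 to 3.20 for Slc5a12, 0.56 to 1.16 for Amn, 0.37 to 1.01 for Dab2 and 0.28 to 0.43 for Lrp2, and the lowest values for Cubn, Slc5a12 and Amn were those without Vehicle replicate 2. For Dab2 the lowest was that without Vehicle replicate 4. The cause of these changes was not tested. Over all genes, calls ran from 734 to 9333 in BRAFV600E with any alternative but the lone-array setting and from 53 to 1129 under MEKi, with 2368 and 380 in the reported fits. No paired analysis was possible because the labels give no replicate numbers that pair arrays.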
